A study of Homo sapiens with 6 samples.

Results

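Interferon-stimulated effectors are the proteins by which a cell that has sensed interferon blocks virus entry, replication and release. The genes studied here are 48 such effectors outside the IFIT and OAS families, taken by symbol from the 60612 Ensembl identifiers of the deposited count table. All 48 symbols matched an identifier, and all 48 passed the filter on low counts that left 20334 genes to test. Their counts ranged from 16 to 44872 per library.

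RNA had been sequenced from the established bladder cancer line T24 in 2 groups of 3 libraries. In the group labelled FOXF1-activated, the cells carried a lentivirus (Lenti-dsFOXF1-367) with a hairpin derived from a small activating RNA, a short duplex designed to raise transcription of FOXF1 from its promoter. In the negative control group, labelled WT for genotype, the lentivirus (Lenti-dsControl) carried a control hairpin. Per the labels' protocols, puromycin at 3 μg/ml selected the stable cells, ribosomal RNA was removed, and dUTP marked the second strand. Whether the replicates were separate cultures, or the line 1 clone, is not in the labels, so p-values rest on a spread among libraries that may be purely technical.

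Type I and type III interferons signal through JAK1 and TYK2 to a complex that includes STAT2 and IRF9, which binds a DNA word in target promoters called the interferon-stimulated response element (ISRE). Interferon-gamma acts at a different word, the gamma-activated site (GAS). Many epithelial cancer cell lines keep part of this programme on without added interferon.

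FOXF1, the gene the activating hairpin was aimed at, ran against its label. Its level was 5.94, 4.78 and 5.10 CPM (counts relative to library size, TMM-scaled) in libraries labelled FOXF1-activated, against 7.51, 7.10 and 7.95 CPM in the negative controls (log2 fold change -0.51, edgeR adjusted p = 0.0109). The groups are therefore called by their labels, and log2 fold changes are for the label FOXF1-activated over the negative control. Library totals were 72765654 to 76358542 counts in libraries labelled FOXF1-activated and 72500854 to 77198669 in the controls. Mitochondrial transcripts took 6.76 ± 0.44% of counts in libraries labelled FOXF1-activated and 5.28 ± 0.21% in the controls (SD, n = 3 each). Markers of epithelial cells and T24 (KRT7, KRT8, KRT18, KRT19 and VIM) summed to 2875 to 3235 CPM with the label FOXF1-activated and 4197 to 4801 CPM in the controls. VIM alone averaged 1857 CPM with the label FOXF1-activated and 2803 CPM in the controls (-0.59). KRT7 (-1.41) and KRT8 (-0.36) were also lower, so that 3 of the 5 were lower, and KRT18 and KRT19 were not called. Leukocyte markers summed to 23.0 to 25.9 CPM with the label FOXF1-activated and 20.1 to 27.2 CPM in the controls, with 1 lower and 2 higher of 6. The lower one, CD14, averaged 0.871 CPM with the label FOXF1-activated and 5.80 CPM in the controls. PTPRC (0.38) and CD3E (0.65) were higher. The plasmacytoid dendritic cell markers CLEC4C and LILRA4 were at 0 in every library, and IL3RA was at 0.440 to 0.547 CPM in libraries labelled FOXF1-activated and at 0 in the controls. Fibroblast markers (1 of 6 lower) summed to 309.8 to 495 CPM with the label FOXF1-activated and 406 to 457 CPM in the controls. Endothelial markers (1 of 3 higher) summed to 4.67 to 13.4 CPM with the label FOXF1-activated and 4.76 to 8.64 CPM in the controls. VWF was higher, with means of 2.97 CPM with the label FOXF1-activated and 0.253 CPM in the controls (3.54). PECAM1 and CDH5 were not called. The part of these transcripts and of the mitochondrial share in the results was not tested, and fewer cells expressing a gene cannot be told apart from less RNA per cell.

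The ISRE was searched as GAAA, any 2 bases and GAAA (GAAA-NN-GAAA) on both strands, and the GAS as TTCNNNGAA, in RefSeq windows of 300 bases (GRCh38.p14, 250 before to 50 after an annotated start). Of the 48 genes, 43 matched at least 1 window, and 28 of these (65.1%) held the ISRE word, against 1195 of 27305 symbols in the whole table (4.38%). By window, 32 of 60 member windows (53.3%) and 1255 of all 35116 windows (3.57%) held it. The GAS word was found in 15 of the 43 genes (34.9%) and in 9.38% of all symbols, and in 6 member windows the words overlapped. MX2, IFITM2, PARP10, GBP2 and UBA7 had no entry. Of 41 ISRE words (the word that PARP9 and DTX3L share counted for each), 27 read on the gene strand and 14 on the opposite strand. A match of letters is a description and not a binding site.

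The first stretches show genes with at least 2 ISRE words, printed 5′ to 3′ on the gene strand with the ISRE words in capitals. ISG15 is shown for the 250 bases before its start, with 2 overlapping words, an arrangement that BST2 shares. IFI6 held 3 words, and IFI44L held the same word in 2 copies of a longer repeat.
ISG15 (chr1:1013247-1013496, plus strand): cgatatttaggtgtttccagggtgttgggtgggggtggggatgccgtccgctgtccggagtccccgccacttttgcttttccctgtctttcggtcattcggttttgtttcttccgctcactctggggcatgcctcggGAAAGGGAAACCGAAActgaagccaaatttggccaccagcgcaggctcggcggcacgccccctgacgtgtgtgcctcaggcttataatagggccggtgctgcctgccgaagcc
BST2 (chr19:17405730-17405775, minus strand): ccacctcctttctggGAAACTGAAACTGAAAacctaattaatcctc
IFI6 (chr1:27672261-27672363, minus strand): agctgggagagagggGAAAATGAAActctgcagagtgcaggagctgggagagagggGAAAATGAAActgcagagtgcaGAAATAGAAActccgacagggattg
IFI44L (chr1:78620269-78620399, plus strand): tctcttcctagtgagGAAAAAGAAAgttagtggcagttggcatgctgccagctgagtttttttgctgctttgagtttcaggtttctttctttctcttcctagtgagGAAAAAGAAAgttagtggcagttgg

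The next stretches come from neighbours in the genome, shown because their RNA levels are compared below. DDX60 and DDX60L each held 2 words, and so did IFITM1 and IFITM3. The word of DTX3L (chr3:122564332-122564341) also lies in a window of PARP9, which is read from the opposite strand.
DDX60 (chr4:168318781-168318855, minus strand): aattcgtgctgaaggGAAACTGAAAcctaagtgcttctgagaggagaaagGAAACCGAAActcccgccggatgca
DDX60L (chr4:168480518-168480587, minus strand): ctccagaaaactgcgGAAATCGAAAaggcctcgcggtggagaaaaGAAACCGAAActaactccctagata
IFITM1 (chr11:313985-314058, plus strand): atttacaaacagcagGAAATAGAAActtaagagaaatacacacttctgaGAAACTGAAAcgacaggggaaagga
IFITM3 (chr11:320871-320927, minus strand): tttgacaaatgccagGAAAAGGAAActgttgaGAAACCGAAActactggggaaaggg
DTX3L (chr3:122564317-122564356, plus strand): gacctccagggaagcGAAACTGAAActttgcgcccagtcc

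The last stretches carry the word across or just past the start, in GBP3 read from the opposite strand, so that its capitals are the reverse complement. MX1 is a gene whose RNA was lower, whereas EIF2AK2 and GBP3 are genes for which no change was called.
MX1 (chr21:41420554-41420587, plus strand): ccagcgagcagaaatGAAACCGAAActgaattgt
EIF2AK2 (chr2:37156962-37157001, minus strand): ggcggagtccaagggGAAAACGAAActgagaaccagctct
GBP3 (chr1:89022840-89022879, minus strand): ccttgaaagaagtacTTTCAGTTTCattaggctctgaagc

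**Figure D1:**
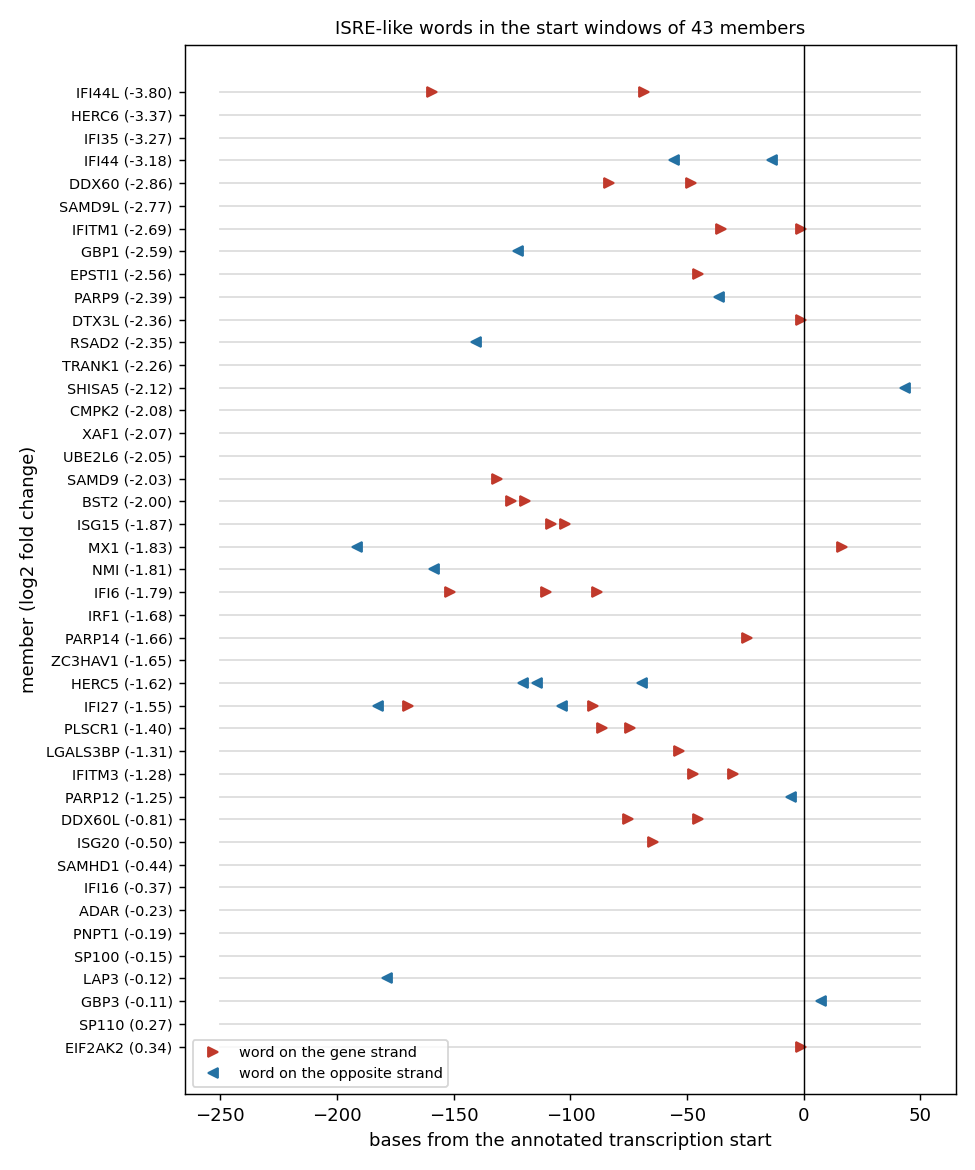
Position of ISRE words (centre of each word, in bases from an annotated start, negative before it) in the RefSeq windows of 43 genes, ordered by log2 fold change. Words appear both in the most reduced gene, IFI44L (-3.80), and in EIF2AK2 (0.34).

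Genes with and without the word had similar medians. The 28 genes with an ISRE word had a median log2 fold change of -1.82, with 25 lower and 0 higher. The 15 genes with windows but no ISRE word had a median of -1.68, with 13 lower and 1 higher. HERC6 (-3.37) and IFI35 (-3.27), among the most reduced genes, had no ISRE word in their windows, though IFI35 held the GAS word. The 17 genes with 1 word had a median of -1.81, and the 11 with 2 or more had a median of -1.83. Among other tested genes with a window, 192 of 491 with the word (39.1%) and 4490 of 12229 without it (36.7%) were lower. Their median log2 fold changes were -0.18 and -0.06. Over all 12763 tested symbols with a window, the effectors included, 37.0% were lower.

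The comparison asked how RNA of these effectors differed between the groups. Of the 48 genes, 43 were lower, 1 (SP110) was higher and 4 were not called, at an edgeR adjusted p under 0.05 over all tested genes. In the same fit 60.7% of all tested genes were called, 31.5% lower and 29.2% higher. The median log2 fold change was -1.82 over the 48 genes and -3.24e-05 over all tested genes. Among the 48, 36 were lower by at least 2-fold and 22 by at least 4-fold, against 15.9% and 4.93% of all tested genes. In 45 of the 48 genes every library labelled FOXF1-activated was below every control, against 35.3% of tested genes. In 1 gene, SP110, every such library was above every control, against 33.5% of tested genes. Together the genes took 0.174, 0.175 and 0.173% of all counts in libraries labelled FOXF1-activated, and 0.407, 0.397 and 0.389% in the controls. Their summed TMM-scaled CPM was 1787 ± 21.5 in libraries labelled FOXF1-activated and 3871 ± 93.5 in the controls (SD, n = 3 each), or 46.2% of the control sum.

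**Figure D2:**
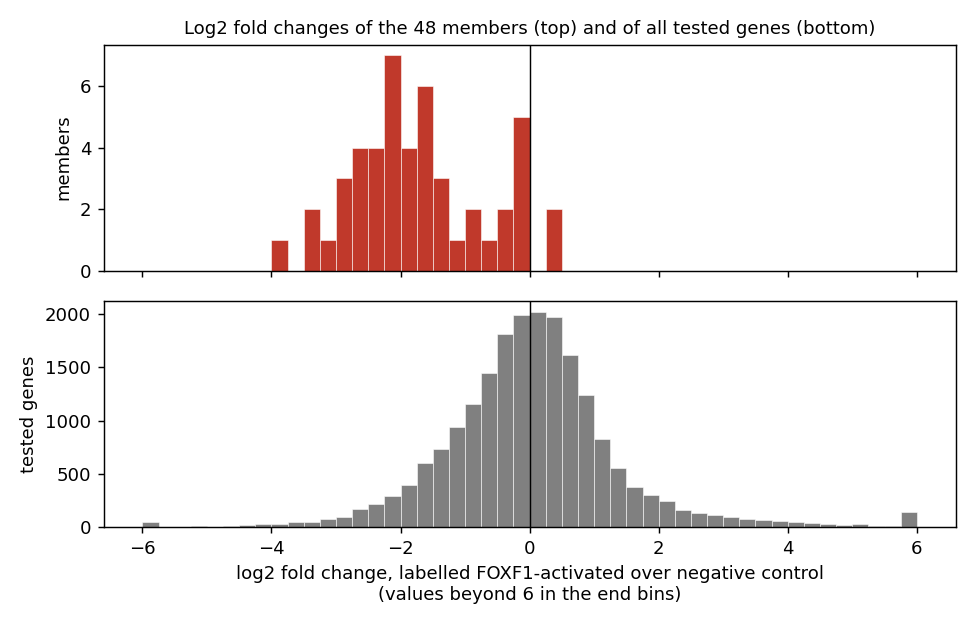
Number of genes by log2 fold change (libraries labelled FOXF1-activated over negative controls, bins of 0.25), for the 48 effectors above and the 20334 tested genes below. The effectors centre on -1.82 with a smaller set just below 0, and the tested genes centre on 0.

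**Figure D3:**
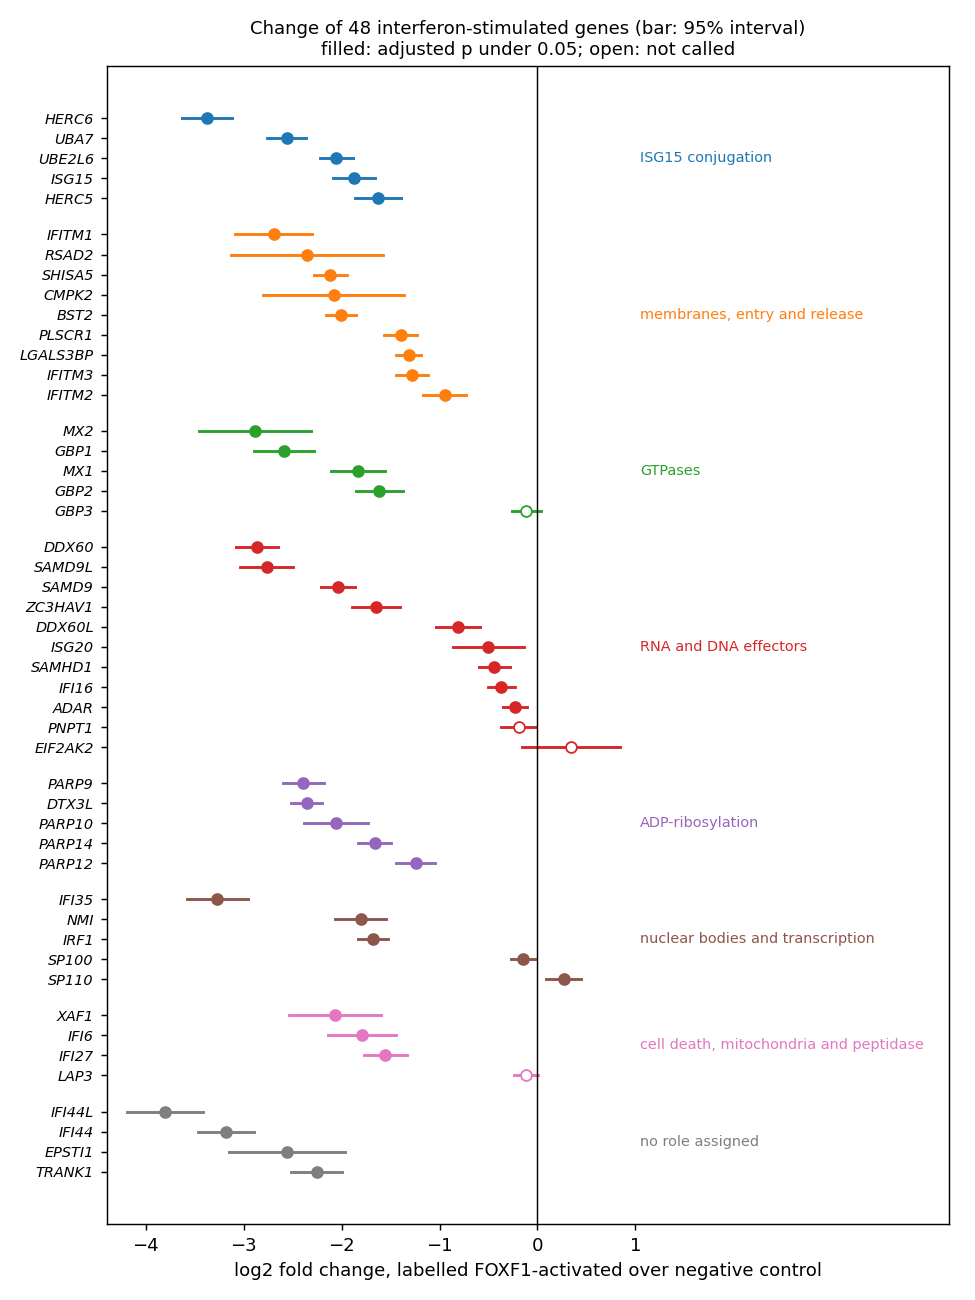
Log2 fold change of each gene with its 95% interval from the edgeR fit, grouped by role and ordered within it. Filled points passed the adjusted p threshold and the 4 open points (GBP3, PNPT1, EIF2AK2 and LAP3) did not; SP100 (-0.15), which passed, lies among them.

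ISG15 and its conjugation enzymes were lower for 5 of 5 genes. ISG15 is a ubiquitin-like protein that is attached to other proteins by the activating enzyme UBA7, the conjugating enzyme UBE2L6 and, in human cells, the ligase HERC5. ISG15 (ENSG00000187608, chromosome 1, 1001138 to 1014540, GRCh38, GENCODE 29) was at 12.9, 15.1 and 12.3 CPM in libraries labelled FOXF1-activated and at 51.3, 50.1 and 46.0 CPM in the controls. The groups lay well apart (log2 fold change -1.87 ± 0.10, SE, edgeR adjusted p = 2.29e-07). UBE2L6 was at 20.4, 23.1 and 19.6 CPM with the label FOXF1-activated, against 85.7, 91.1 and 84.6 CPM in the controls (-2.05). UBA7 was at 7.64, 7.05 and 7.97 CPM with the label FOXF1-activated, against 43.4, 43.4 and 47.0 CPM in the controls (-2.56). In ISG15 and both enzymes each library labelled FOXF1-activated lay below each control. HERC5 was at 18.8, 14.6 and 15.1 CPM with the label FOXF1-activated, against 49.3, 48.4 and 52.0 CPM in the controls (-1.63). Its neighbour HERC6, the main ISG15 ligase of the mouse, was at 4.53, 3.58 and 3.85 CPM with the label FOXF1-activated, against 44.2, 39.9 and 39.8 CPM in the controls (-3.37).

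Genes that act at membranes, on virus entry or on virus release were lower for 9 of 9. The IFITM proteins block fusion of viruses in endosomes or at the cell surface. IFITM3 was at 105, 107 and 95.8 CPM in libraries labelled FOXF1-activated and at 255.2, 266 and 226 CPM in the controls (-1.28 ± 0.07, SE, edgeR adjusted p = 4.43e-07). IFITM1 was at 2.92, 2.37 and 2.35 CPM with the label FOXF1-activated, against 19.7, 16.4 and 13.4 CPM in the controls (-2.69). IFITM2 was at 22.9, 22.0 and 20.7 CPM with the label FOXF1-activated, against 39.4, 48.01 and 39.1 CPM in the controls (-0.95), the smallest change of the 9. How reads were divided between IFITM1 and IFITM2 is uncertain. In GENCODE 29 these genes share 351 exon bases on the same strand, 32.5% of those of IFITM1. Of the 100-base words of IFITM1 transcripts, 27.5% occur in another gene.

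BST2, or tetherin, which holds budding virus at the cell surface, was at 38.1, 38.9 and 39.8 CPM in libraries labelled FOXF1-activated, against 161, 165 and 141 CPM in the controls, which left 24.9% of the control level. LGALS3BP, a secreted glycoprotein that binds galectin-3, was at 215, 236 and 225 CPM with the label FOXF1-activated, against 543, 585 and 553 CPM in the controls (-1.31). It carried 16.1% of the whole difference in summed level, more than any other of the 48. SHISA5, a p53-inducible protein of internal membranes, was at 45.5, 54.5 and 46.8 CPM with the label FOXF1-activated, against 209, 216 and 211 CPM in the controls (-2.12), and PLSCR1, a phospholipid scramblase, had a log2 fold change of -1.40. In each of these genes the groups did not overlap.

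RSAD2 and CMPK2 lie head to head on chromosome 2, where their loci overlap. RSAD2 encodes viperin, an enzyme that makes a chain-terminating nucleotide, and CMPK2 a mitochondrial nucleotide kinase. Both were rare. RSAD2 was at 0.412, 0.226 and 0.360 CPM in libraries labelled FOXF1-activated, against 1.42, 1.54 and 2.17 CPM in the controls (-2.35, standard error 0.34). CMPK2 was at 0.398, 0.310 and 0.627 CPM with the label FOXF1-activated, against 1.93, 1.97 and 1.78 CPM in the controls (-2.08, standard error 0.32). RSAD2 rested on 16 to 29 counts and CMPK2 on 22 to 47 counts per library labelled FOXF1-activated.

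Of the 5 interferon-induced GTPases, 4 were lower and GBP3 was not called. MX1 and MX2 form rings that trap viral nucleocapsids, and guanylate-binding proteins coat pathogen vacuoles and viral assembly sites. MX1 was at 6.05, 6.25 and 4.99 CPM in libraries labelled FOXF1-activated, against 22.3, 19.7 and 19.6 CPM in the controls (-1.83, edgeR adjusted p = 1.12e-06). MX2, next to it on chromosome 21, was at 0.611, 0.508 and 0.761 CPM with the label FOXF1-activated, against 3.73, 5.62 and 4.54 CPM in the controls (-2.88). GBP1 was at 4.43, 5.50 and 3.91 CPM with the label FOXF1-activated, against 26.4, 27.8 and 29.04 CPM in the controls (-2.59), and GBP2 at 8.75, 7.90 and 10.01 CPM with the label FOXF1-activated, against 27.8, 27.7 and 26.1 CPM in the controls (-1.61). GBP3, in the same chromosome 1 cluster, was at 46.2, 48.3 and 49.6 CPM with the label FOXF1-activated, against 51.2, 49.3 and 55.5 CPM in the controls. Its groups overlapped: the highest library labelled FOXF1-activated exceeded the lowest control, and the log2 fold change was -0.11 (95% interval -0.26 to 0.03, edgeR adjusted p = 0.165). Per kilobase of exon, GBP3 was the most abundant of the 5 in both groups, at 11.2 CPM per kb with the label FOXF1-activated and 12.1 CPM per kb in the controls.

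Effectors that bind, edit or degrade RNA or DNA were lower for 9 of 11, with 2 not called and 4 lower by at least 2-fold. DDX60, a helicase-like antiviral factor, was at 8.39, 9.13 and 7.94 CPM in libraries labelled FOXF1-activated, against 61.6, 56.3 and 67.4 CPM in the controls (-2.86, edgeR adjusted p = 2.59e-08). DDX60L, beside it on chromosome 4, was at 19.6, 24.8 and 22.7 CPM with the label FOXF1-activated, against 40.8, 36.4 and 40.2 CPM in the controls (-0.81). SAMD9 and SAMD9L, neighbours on chromosome 7 that restrict poxviruses, had log2 fold changes of -2.03 and -2.77. SAMD9L was at 3.17, 2.91 and 2.83 CPM with the label FOXF1-activated, against 20.2, 18.5 and 21.9 CPM in the controls. ZC3HAV1, the zinc finger protein ZAP that binds CpG-rich viral RNA, was at 53.5, 39.9 and 40.7 CPM with the label FOXF1-activated, against 142, 132 and 146 CPM in the controls (-1.65).

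The remaining nucleic acid effectors had log2 fold changes within 1 of 0, and PNPT1 and EIF2AK2 were not called. ADAR, the enzyme that edits adenosine to inosine in dsRNA, was at 338, 321 and 323 CPM in libraries labelled FOXF1-activated, against 406, 373 and 372 CPM in the controls (-0.23, edgeR adjusted p = 0.00476). IFI16, a DNA sensor, was at 138, 131 and 134 CPM with the label FOXF1-activated, against 160, 177 and 183 CPM in the controls (-0.37), and SAMHD1, which degrades deoxynucleotides, was at 97.8, 84.6 and 92.5 CPM with the label FOXF1-activated, against 132, 123 and 117 CPM in the controls (-0.44). ISG20, a small RNA exonuclease, was at 3.68, 3.77 and 3.78 CPM with the label FOXF1-activated, against 6.14, 4.87 and 4.88 CPM in the controls (-0.50, edgeR adjusted p = 0.0223). Groups did not overlap for these 4. With upper-quartile scaling the edgeR calls of ADAR (-0.13, adjusted p = 0.0783) and ISG20 (-0.40, adjusted p = 0.057) were lost. ISG20 also lost its call without FOXF1-activated replicate 1 (adjusted p = 0.0573) or 3 (0.0514) and without negative control replicate 1 (0.0833). PNPT1, a mitochondrial RNA exonuclease, was at 30.9, 30.0 and 34.2 CPM with the label FOXF1-activated, against 37.7, 34.5 and 36.5 CPM in the controls (-0.19, 95% interval -0.37 to -0.02, edgeR adjusted p = 0.0572). It was called lower with library totals only (-0.27, adjusted p = 0.0166), and likewise after FOXF1-activated replicate 3 was left out (-0.26, adjusted p = 0.0285).

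EIF2AK2, the dsRNA-activated kinase PKR, was not called, and its value rested on 1 control library. It was at 122, 103 and 113 CPM in libraries labelled FOXF1-activated and at 113, 100.4 and 53.2 CPM in the controls, and the groups overlapped. The fitted change was 0.34 on the log2 scale (95% interval -0.16 to 0.84, edgeR adjusted p = 0.216). Without negative control replicate 3 it was 0.07 (adjusted p = 0.548). Of the 48 genes it was the only one with a positive change apart from SP110.

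ADP-ribosylation genes were lower for 5 of 5. PARP9 forms a complex with the ubiquitin ligase DTX3L, and PARP10, PARP12 and PARP14 are mono-ADP-ribosyltransferases. DTX3L was at 15.9, 17.3 and 15.7 CPM in libraries labelled FOXF1-activated, against 87.9, 79.8 and 82.9 CPM in the controls (-2.36, edgeR adjusted p = 1.74e-08). PARP9 was at 9.68, 8.99 and 10.2 CPM with the label FOXF1-activated, against 55.4, 48.3 and 47.6 CPM in the controls (-2.39). DTX3L was thus at 19.5% and PARP9 at 19.1% of its control level. PARP10 was at 15.3, 24.6 and 19.5 CPM with the label FOXF1-activated, against 86.9, 79.8 and 81.2 CPM in the controls (-2.06). PARP10 shares 324 exon bases with GRINA on the opposite strand, which averaged 166 CPM with the label FOXF1-activated and 205 CPM in the controls (-0.30). PARP14 (-1.66) and PARP12 (-1.25) were lower too. PARP14 was at 38.6 to 41.9 CPM with the label FOXF1-activated, against 114 to 135 CPM in the controls, and PARP12 at 18.8 to 21.7 CPM with the label FOXF1-activated, against 44.96 to 51.9 CPM in the controls.

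Genes of nuclear bodies and transcription were lower for 4 of 5 and higher for SP110. IFI35 and NMI, proteins that bind each other, were both lower. IFI35 was at 5.01, 4.05 and 3.50 CPM in libraries labelled FOXF1-activated, against 40.3, 43.4 and 37.5 CPM in the controls (-3.27, edgeR adjusted p = 8.64e-08), and NMI had a log2 fold change of -1.81. IRF1, a transcription factor of the interferon-gamma response, was at 22.9, 23.1 and 24.6 CPM with the label FOXF1-activated, against 78.4, 70.6 and 76.6 CPM in the controls (-1.68). Without a known strand setting, IRF1 counts may include reads of C5orf56, which shares 1716 of its exon bases on the opposite strand and was lower too (-2.09).

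SP100 and SP110, related nuclear body proteins, differed by little and in opposite directions. SP100 was at 74.5, 78.8 and 77.8 CPM in libraries labelled FOXF1-activated, against 83.2, 84.7 and 87.9 CPM in the controls (-0.15, edgeR adjusted p = 0.0351). The SP100 call was lost under 9 of 15 alternatives, among them leaving out FOXF1-activated replicate 1 or 3 or negative control replicate 2 or 3, with adjusted p up to 0.455. SP110 was at 27.0, 29.2 and 25.9 CPM with the label FOXF1-activated, against 23.0, 22.3 and 23.0 CPM in the controls (0.27, edgeR adjusted p = 0.0157), and each library labelled FOXF1-activated lay above each control. The SP110 call was lost with library totals only (0.19, adjusted p = 0.0686) and without negative control replicate 2 (0.25, adjusted p = 0.0535). SP140, which shares 170 exon bases with SP110 on the opposite strand, averaged 26.5 CPM with the label FOXF1-activated and 8.06 CPM in the controls (1.71), and its part in the SP110 counts was not tested.

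Of the cell death, mitochondrial and peptidase genes 3 of 4 were lower. IFI27 and IFI6 encode small hydrophobic proteins of mitochondria and other membranes. IFI27 was at 50.2, 58.3 and 46.9 CPM in libraries labelled FOXF1-activated, against 159, 164 and 134 CPM in the controls (-1.55, edgeR adjusted p = 8.09e-07). IFI6 was at 5.64, 5.56 and 4.23 CPM with the label FOXF1-activated, against 19.7, 18.6 and 15.2 CPM in the controls (-1.79). XAF1, which binds the apoptosis inhibitor XIAP, was at 1.63, 1.10 and 1.53 CPM with the label FOXF1-activated, against 5.69, 5.47 and 6.79 CPM in the controls (-2.07). LAP3, a cytosolic leucine aminopeptidase, was at 78.2, 71.8 and 77.2 CPM with the label FOXF1-activated, against 83.6, 80.9 and 82.2 CPM in the controls. Its groups did not overlap, yet the change of -0.12 did not pass the test (95% interval -0.24 to 0.00, edgeR adjusted p = 0.0857).

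The 4 genes given no role here were all lower by more than 4-fold. IFI44L had the lowest fold change of the 48, at 1.22, 0.988 and 0.841 CPM in libraries labelled FOXF1-activated, against 15.2, 13.3 and 14.1 CPM in the controls (-3.80, edgeR adjusted p = 1.18e-07). IFI44, just downstream of it on chromosome 1, was at 6.83, 9.93 and 7.78 CPM with the label FOXF1-activated, against 72.4, 75.1 and 75.1 CPM in the controls (-3.18). EPSTI1 was at 2.02, 2.46 and 1.09 CPM with the label FOXF1-activated, against 10.1, 11.0 and 11.7 CPM in the controls (-2.56), and TRANK1 at 8.68, 10.8 and 10.8 CPM with the label FOXF1-activated, against 50.2, 51.7 and 42.9 CPM in the controls (-2.26).

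**Figure D4:**
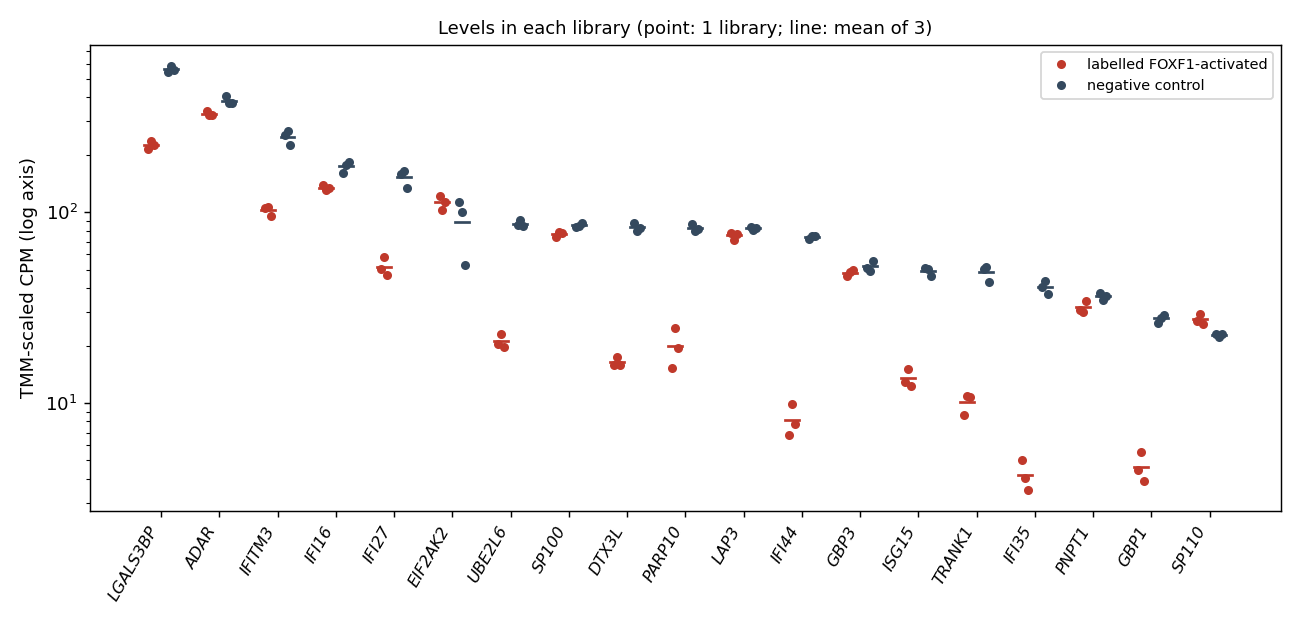
TMM-scaled CPM (log axis) in each library for the 2 most abundant genes of each role per exon length and for each gene not called lower. Points are libraries and lines are means of 3; the EIF2AK2 control libraries spread from 53.2 to 113 CPM, whereas IFI44 shows no overlap, with 6.83 to 9.93 CPM in libraries labelled FOXF1-activated and 72.4 to 75.1 CPM in the controls.

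The order of mean levels per kilobase of exon differed between the groups. IFITM3, LGALS3BP and BST2 led in both groups, at 76.0, 62.8 and 34.8 CPM per kb in libraries labelled FOXF1-activated and 185, 156 and 140 CPM per kb in the controls. Behind them in libraries labelled FOXF1-activated came ADAR, IFI16 and LAP3 (33.8, 25.4 and 20.0 CPM per kb), which were ranked 7, 10 and 12 in the controls. ISG15, SHISA5 and UBE2L6, ranked 4, 5 and 6 in the controls, were ranked 7, 11 and 13 with the label FOXF1-activated. ADAR made up 18.3% of the summed CPM of the 48 genes in libraries labelled FOXF1-activated and 9.91% in the controls.

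Related and neighbouring genes were set against each other by the log2 ratio of their counts within a library, which does not depend on scaling. Of 12 such ratios, 9 did not overlap between the groups. Single tested genes were without overlap in 35.3% (below the controls) and 33.5% (above them), so nothing particular to these pairs is read from the count, and ratios of other genes were not computed. An exact two-sided permutation test of 3 against 3 libraries cannot go below p = 0.10, which these 9 reached (0.133 adjusted over the 12), so none passes 0.05. The HERC5 to HERC6 log2 ratio was 2.06, 2.02 and 1.97 in libraries labelled FOXF1-activated and 0.16, 0.28 and 0.39 in the controls. The DDX60 to DDX60L log2 ratio was -1.22, -1.44 and -1.51 with the label FOXF1-activated, against 0.59, 0.63 and 0.74 in the controls. DDX60 was thus the more abundant of its pair by counts in the controls and the less abundant with the label FOXF1-activated. The windows of both hold 2 ISRE words, and the part of these words in the ratio was not tested.

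The GBP1 to GBP3 log2 ratio was -3.38, -3.13 and -3.66 in libraries labelled FOXF1-activated and -0.96, -0.83 and -0.93 in the controls. The SAMD9 to SAMD9L log2 ratio averaged 1.78 ± 0.09 with the label FOXF1-activated and 1.047 ± 0.09 in the controls (SD, n = 3 each). PARP9 and DTX3L, whose windows share an ISRE word, kept overlapping log2 ratios of -0.71, -0.95 and -0.63 in libraries labelled FOXF1-activated and -0.67, -0.73 and -0.80 in the controls (exact permutation p = 0.90). PARP9 and DTX3L also share 217 exon bases on opposite strands. The part of these bases or of the shared word in their ratio was not tested. Log2 ratios of RSAD2 and CMPK2 overlapped between the groups as well (difference of means -0.22, exact permutation p = 0.50). So did those of IFI44 and IFI44L (difference of means 0.61, exact permutation p = 0.20).

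**Figure D5:**
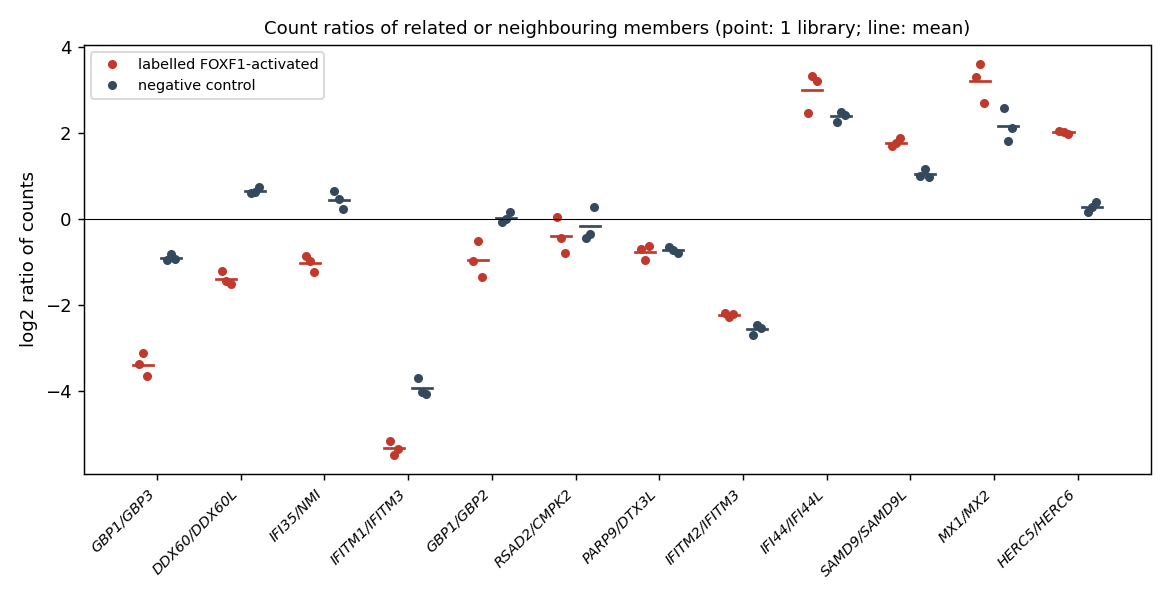
Log2 ratio of the counts of 2 genes in each library, ordered by the difference between the groups. Points are libraries and lines are means of 3; groups are apart for 9 ratios, as they are for most single tested genes (35.3% below and 33.5% above the controls), such as HERC5/HERC6 (mean 2.02 with the label FOXF1-activated and 0.27 in the controls), and overlap for PARP9/DTX3L (mean -0.76 with the label FOXF1-activated and -0.73 in the controls).

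The other genes of the interferon pathway were read from the same fit. Interferon ligands were near or at 0. IFNA2, IFNL1, IFNL2 and IFNL3 had no count in any library, IFNB1 was at 0 in the 3 libraries labelled FOXF1-activated and at 0.1003, 0 and 0.053 CPM in the controls, and only IFNE of 9 ligands was abundant enough to test (not called). Of 6 receptor genes 2 were lower and 2 higher, beside 31.5% lower and 29.2% higher of all tested genes. Nothing particular to receptors is read from that count. IFNGR2, which signals for interferon-gamma, was at 22.9, 21.7 and 21.9 CPM with the label FOXF1-activated, against 42.7, 45.7 and 42.7 CPM in the controls (-0.98), while its partner IFNGR1 was at 36.3, 38.2 and 38.5 CPM with the label FOXF1-activated, against 21.7, 21.9 and 20.8 CPM in the controls (0.81). For the type I receptor, IFNAR2 was lower (-0.41, edgeR adjusted p = 0.0226) and IFNAR1 was not called (0.16, adjusted p = 0.0561). IFNAR1 was called higher under 5 alternatives: DESeq2 size factors (adjusted p = 0.0268), upper-quartile scaling (0.00577), the filter of 1 CPM (0.0180), the DESeq2 Wald test (0.0175) and counts divided by 4 (0.0229). IFNAR2 lost its call under upper-quartile scaling (adjusted p = 0.0679), without FOXF1-activated replicate 1 (0.0506) and without negative control replicate 1 (0.0629) or 3 (0.0635). IL10RB, shared by interferon-lambda and interleukin-10 receptors, was higher (0.31, adjusted p = 0.0124), but not with library totals only (0.0526) or when negative control replicate 2 (0.0549) or 3 (0.0569) was left out.

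All 8 kinases and transcription factors were lower, with a median log2 fold change of -0.58. STAT2 (-0.77) and IRF9 (-0.73) belong to the complex that binds the ISRE. JAK2 lost its call under upper-quartile scaling (-0.23, edgeR adjusted p = 0.0654) and when FOXF1-activated replicate 1 was left out (-0.27, adjusted p = 0.0557). IRF9 was at 18.0, 27.4 and 22.3 CPM in libraries labelled FOXF1-activated, against 44.6, 36.7 and 31.0 CPM in the controls. IRF7, itself an interferon-induced factor, was at 7.58, 8.85 and 6.90 CPM with the label FOXF1-activated, against 35.1, 29.5 and 30.9 CPM in the controls (-2.03). Of the feedback genes 3 of 4 were lower, among them USP18, the ISG15 protease (-1.39). SOCS1, another of the 3, rested on 4, 0 and 4 counts with the label FOXF1-activated, against 50, 40 and 39 in the controls. The lower feedback genes numbered 2 with the filter of 1 CPM and with counts divided by 4. Of the IFIT and OAS genes 8 of 9 were lower, with a median of -3.49 over the 9.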

How the data were processed

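The deposited table holds whole-number counts per Ensembl gene, which the authors did not normalise as far as the values show. Cutadapt 1.9, TopHat2 2.0.4 and GRCh38 are named per the submitters' processing notes. How reads were counted, with which strand setting and annotation, is not given in the sources used here. In the table, a count of 4 was 2.35 times as common as its neighbours (8, 1.94 times; 12, 1.60 times), so precision may be overstated.

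Genes were kept by filterByExpr (minimum count 10, minimum total 15), scaled by TMM and tested by edgeR 4.0.16 (quasi-likelihood, R 4.3.3), adjusted by Benjamini-Hochberg over 20334 genes. A standard error is the fold change (log2) over the root of its F statistic. Levels per kb use exon unions of GENCODE 29 (GRCh38). Symbols came from a table that named 60401 of 60612 identifiers. Alternatives included DESeq2 1.42.0 and voom of limma 3.58.1. Ratios of related genes used counts plus 0.5. Libraries of a group differed beyond sampling noise (chi-square per degree of freedom 19.2 to 33.0), so no library was counted as a duplicate.

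The genes and lists were chosen with earlier results of these data known. Values in every library were required for the 2 most abundant genes of each role per exon length and for each gene not called lower. Others were added after their values were seen.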

Additional observations from a re-analysis of the deposited data

How the results depend on the processing

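Over 15 alternatives (3 other scalings, 2 other filters, DESeq2, limma-voom, the replicate block, counts divided by 4 and leaving out each library), none of the 48 genes changed direction, and 700 of 720 calls kept their side of the threshold. The calls that moved belonged to 7 genes: ADAR, GBP3, ISG20, LAP3, PNPT1, SP100 and SP110. The 43 lower genes became 40 under upper-quartile scaling and 46 with library totals only, where GBP3, PNPT1 and LAP3 were called lower and 0 genes higher. The median log2 fold change was -1.72 under upper-quartile scaling, which moved the median of all tested genes to 0.10, and -1.90 with library totals only. Leaving out a library gave 41 to 43 lower, 0 or 1 higher (0 without negative control replicate 2) and medians of -1.89 to -1.76. Receptor genes were 1 lower under upper-quartile scaling, 1 higher with library totals only, 3 higher under 5 alternatives (DESeq2 size factors, upper-quartile scaling, the filter of 1 CPM, DESeq2 and counts divided by 4), and 1 to 2 each way without a library. FOXF1 stayed lower, at -0.60 to -0.45 without a library. The replicate block gave 43 lower genes and 1 higher. Deviations from the group mean, over all tested genes, correlated at -0.020, -0.001 and -0.021 between same-numbered libraries. These values show no pairing by number, but with 3 libraries per group they cannot show that same-numbered libraries were prepared apart. Alternatives for ratios of related genes were added after seeing the data. Leaving out a library moved the PARP9/DTX3L difference over -0.0999 to 0.0598 (above 0 without FOXF1-activated replicate 2) and RSAD2/CMPK2 over -0.446 to 0.00427 (above 0 without negative control replicate 3), and the cause was not tested. Of all tested genes 11014 to 12831 were called under the alternatives that kept every library. The number tested changed with the filter. The share called ran from 34.3% of 34175 genes with no filter to 75.2% of 14638 with the filter of 1 CPM. With 16 to 162 counts per library, RSAD2 and CMPK2 are limited by depth.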
